A study of Mus musculus with 6 samples.

Results

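Of the 37119 features of the array, counting genes and regions, 4429 are regions named only by their place in the genome. Each is a probe target with a name of the form chr7:13533925-13544525_F, which gives chromosome, start and end on the mouse build mm9, as the file headers state it, and F or R, read here as the forward and the reverse strand because the files do not define the letters. All such names on the 19 autosomes were taken, and the log2 ratios of the probes sharing a name were averaged. They came to 15604 of 55681 probes, with 2231 forward and 2198 reverse regions at 3387 different intervals. At 1042 intervals the array has both strands, at 1189 only the forward and at 1156 only the reverse one. Many regions overlap: 2034 overlap another on the same strand, and joining these left 3226 clusters. The median length was 10745 bp, with quartiles at 1791 and 25940 bp. A region has 1 probe in 660 cases, 3 in 1726 and 10 at most.

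The arrays set liver RNA of Fra-1hep mice against liver RNA of wild-type mice, all on the C57BL/6J strain and 26 to 28 weeks old, with no treatment. In Fra-1hep mice, Fra-1, a subunit of the AP-1 transcription factor encoded by Fosl1, is overexpressed in hepatocytes only; no label names the promoter that drives it. On 5 arrays the RNA of 1 Fra-1hep mouse, labelled with Cy5, met a Cy3-labelled pool made from 5 wild-type animals on chow. The remaining array has the dyes the other way round and sets a Fra-1hep pool in Cy3 against the wild-type pool, here in Cy5. The wild-type pool is therefore 1 control sample, and the spread between wild-type mice was not measured. In bulk liver RNA, a change in the number of cells of a type and a change in RNA per cell cannot be told apart.

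Long intergenic noncoding RNAs are transcripts made between protein-coding genes that do not encode a protein. Many are spliced and polyadenylated like messenger RNAs, are present at lower levels than messenger RNAs and are restricted to few tissues. Well-studied examples organise nuclear bodies, act at neighbouring genes or bind proteins that modify chromatin, and for most no function is known. Probes on both strands of an interval are informative because a transcript comes from 1 strand, and antisense partners or divergent promoters can be regulated apart. The intervals could not be placed against annotated genes here, since no gene annotation of mm9 was used, so whether a region lies outside genes, or shares exons with one, was not checked.

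The arrays carried 62976 spots each, of which 0 were saturated. The scanner software marked 48.5 to 58.9% of all probes as well above background for Fra-1hep RNA and 45.0 to 50.7% for wild-type RNA. The arrays of mice 2 and 3 were no further apart than repeated spots on an array (0.999 times the spread these predict), while the other 9 pairs of mice differed by 1.52 to 1.93 times it, so mice 2 and 3 were counted as 1 sample and n = 4. The single Fosl1 probe stayed at background for both genotypes on all 6 arrays, with log2 ratios from -0.18 to 0.07, so it does not check the labels. All 10 hepatocyte markers were well above background on every array in both channels, and 1 was called higher and 2 lower (median log2 ratio 0.09, array medians -0.15 to 0.39). Of other cell type markers, 7 of 11 neutrophil markers were called higher (median log2 ratio 2.19, array medians 0.83 to 2.96) and 0 lower. By contrast 9 of 11 tested macrophage markers (median -0.59, array medians -0.96 to -0.43), 5 of 7 endothelial markers (-0.43, -0.66 to -0.22) and 5 of 7 tested T and NK cell markers (-0.33, -0.35 to -0.17) were called lower. Of 5 cholangiocyte markers 2 were called higher (0.21, 0.10 to 0.28), and of 6 stellate cell markers 1 (-0.04, -0.10 to 0.14). Beside these counts, 5.59% of all 22886 features tested were called higher and 6.01% lower. The part of the marker shifts in the results on regions was not tested.

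RNA was detected from at least 53.7% of the regions in Fra-1hep liver, but mostly by only some of a region's probes. Counting a region when any of its probes was well above background, the share in the Fra-1hep channel was 57.9% in mouse 1, 65.9% in mouse 2, 71.3% in mouse 3, 62.0% in mouse 4, 62.9% in mouse 5 and 53.7% on the dye-swapped array. In the wild-type channel of the same arrays it was 47.8, 56.1, 57.6, 51.3, 54.5 and 58.2%. The higher share was in the Cy5 channel on every array, and on the dye-swapped array that was the wild-type one; the parts of dye and genotype in these shares were not tested. The mean was 62.3% ± 6.14 (SD, 6 arrays) for Fra-1hep and 54.2% ± 4.00 for wild type. Asking that all probes of a region be above background lowered these means to 16.2% and 12.6%.

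**Figure D1:**
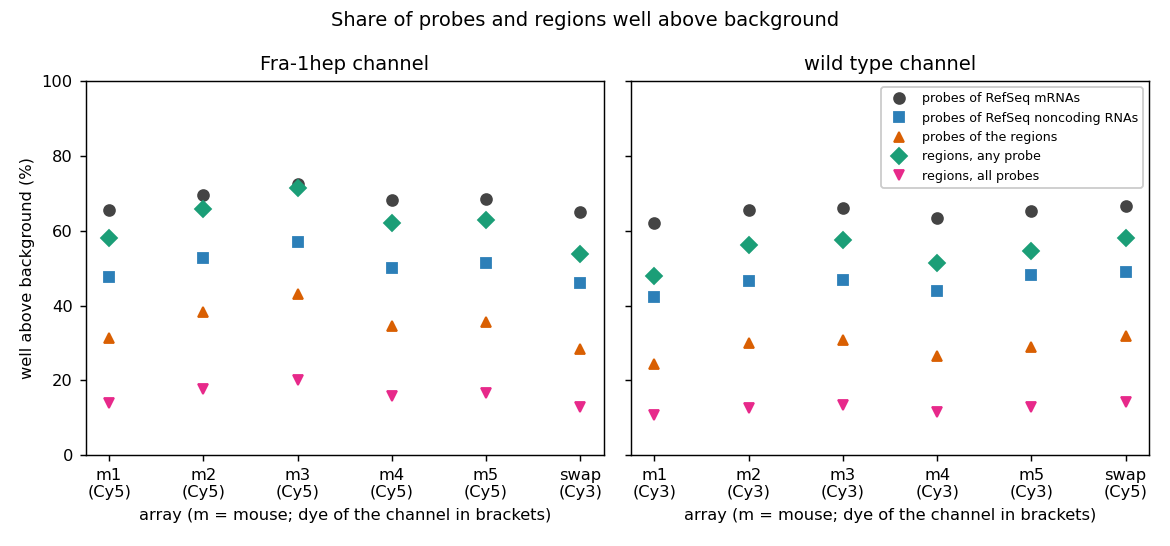
Share of probes or regions well above background (%, vertical axis) on each of the 6 arrays (horizontal axis, with the dye of the channel), for the Fra-1hep channel on the left and the wild-type channel on the right. Probes of the regions (orange) lie between 24.3 and 43.0%, below probes of RefSeq noncoding RNAs (blue, 42.2 to 57.1%) and of RefSeq mRNAs (grey, 62.1 to 72.5%) on every array.

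Taken probe by probe, 28.4 to 43.0% of the probes of these regions passed that mark with Fra-1hep RNA and 24.3 to 31.9% with wild-type RNA. Probes of RefSeq noncoding RNAs reached 46.2 to 57.1% and 42.2 to 48.9%, and probes of RefSeq mRNAs 65.1 to 72.5% and 62.1 to 66.7%. On each array and channel the order was the same, with the regions lowest. On all 6 arrays and in both channels 1825 regions (41.2%) had a probe above background, and 983 (22.2%) had none on any array. Detection on at least 3 arrays in Fra-1hep and on none in wild type was seen for 107 regions (2.42%), and the reverse for 0 regions; among all other features these counts were 536 of 32690 (1.64%) and 16. Fra-1hep RNA was in Cy5, the channel with the larger share, on 5 of the 6 arrays, and the part of the dye in these counts was not tested.

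Few regions differed between Fra-1hep and wild-type liver. Of 2855 regions with enough signal to test, 81 changed at an adjusted p under 0.05, or 2.84%, beside 11.6% of all 22886 features tested. Of these, 41 were higher (1.44%, beside 5.59% of all features) and 40 lower (1.40%, beside 6.01%). They belong to 72 clusters of overlapping regions. In total 230 regions (8.06%) had an unadjusted p under 0.05. The ratios lay close to 0: 2428 regions were within 0.1 of it on the log2 scale, the central 90% ran from -0.12 to 0.14, and the extremes were -1.22 and 2.10. Among the changed regions the median size was 0.33 on the log2 scale, 7 changed at least 1.5-fold and 3 at least 2-fold. The direction was the same on all 6 arrays for 79 of the 81, beside 2411 of the 2574 other features that changed. The same arrays gave the calls, which favours such agreement. The exceptions among the regions were chr2:50152329-50289487_F and chr17:95149413-95174473_F, named here after their values were seen. The changed regions were spread over both strands, with 39 forward and 42 reverse, where 1433 forward and 1422 reverse regions were tested.

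The test is limma's moderated test with a dye term, in which the dye-swapped array weighs as much as all mice together; without the dye term the count rose to 153, and to 217 from the mouse arrays alone. With arrays centred on their median in place of loess the split was 50 higher and 22 lower, and leaving out mouse 4 left 45 changed regions. Where n is given it counts mice, while each SE also rests on the dye-swapped array. The labels do not say whether the Fra-1hep pool on that array holds the same mice.

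The share of changed regions rose with signal. All tested features were divided into 4 equal bins by mean signal, and 1956 of the 2855 regions fell into the dimmest. There 0.971% of the regions changed, beside 5.23% of the other features. In the next bin the shares were 5.56 and 13.0%, in the one after that 9.52 and 16.7%. In the brightest bin 17.0% of the regions changed (8 of 47), beside 797 of 5675 other features. In the dimmest 3 bins the share among regions was thus below that among other features. In the brightest bin, which holds 47 regions, it was above. Signal also depends on a probe's sequence, and the background offset of 50 units pulls the ratios of dim probes towards 0.

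**Figure D2:**
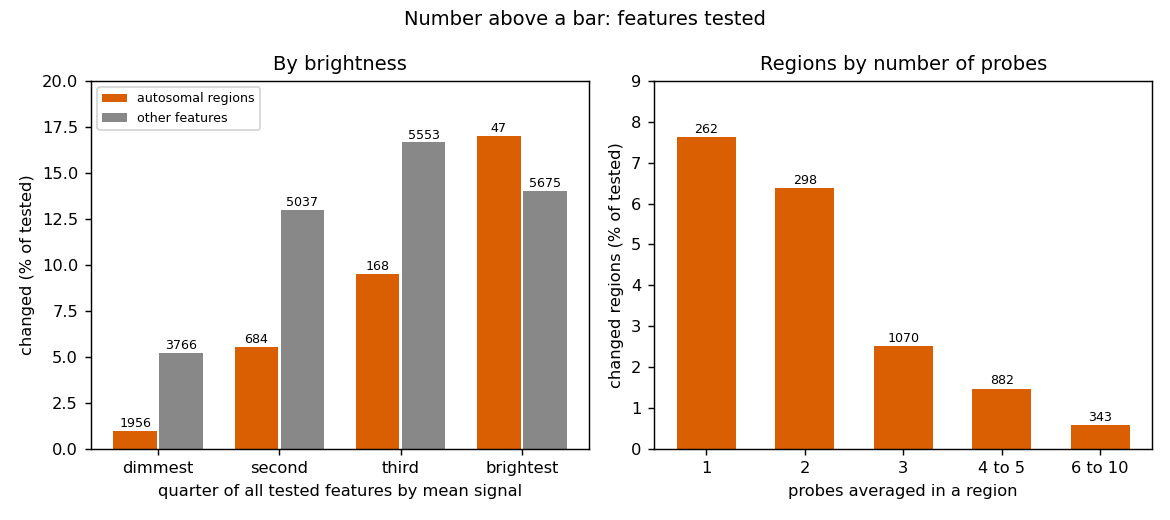
Share of tested features that changed (%, vertical axes), on the left by bin of mean signal for regions (orange) and other features (grey), and on the right for regions by the number of probes averaged; the number above a bar is the number tested. The share among regions climbs from 0.971 to 17.0% with signal and falls from 7.63 to 0.583% with the number of probes.

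The share also fell with the number of probes in a region, from 7.63% (20 of 262 tested) with 1 probe and 6.38% with 2 to 2.52% with 3, 1.47% with 4 to 5 and 0.583% (2 of 343) with 6 to 10. A region passes the filter if any probe is above background, so 39.7% of regions with 1 probe were tested but 89.3% of those with 6 to 10, and in the latter bright and dim probes are averaged. When single probes were tested, 285 of 5642 region probes changed (5.05%, 146 higher and 139 lower), beside 11.5% of all probes, 14.9% of RefSeq mRNA probes and 30 of 304 RefSeq noncoding RNA probes (9.87%). Length made less of a difference: 2.40% of tested regions up to 1 kb changed, 2.99% from 1 to 10 kb, 2.85% from 10 to 100 kb and 3.57% (4 of 112) above 100 kb. By chromosome, 7 of 65 tested regions changed on chromosome 19 (10.8%, 6 of them higher) and 12 of 220 on chromosome 1 (5.45%), while 0 of 136 changed on chromosome 11 and 0 of 138 on chromosome 12. Of the 7 on chromosome 19, 5 come from 2 neighbourhoods described further on.

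The largest rise was in chr7:13533925-13544525_F, a 10601 bp interval measured by 1 probe. Its log2 ratio was 2.11 in mouse 1, 2.12 in mouse 2, 2.37 in mouse 3, 2.00 in mouse 4, 1.79 in mouse 5 and 2.16 on the dye-swapped array. All 6 arrays were thus high, with a fitted value of 2.10 (SE 0.09, n = 4, 4.27-fold, adjusted p = 0.000193). Second was chr2:113880070-113887230_F, with 1.86, 1.62, 1.65, 1.90 and 1.30 in mice 1 to 5 and 1.78 on the dye-swapped array. Its fitted log2 ratio was 1.73 (SE 0.11, 3.31-fold, adjusted p = 0.000985), and its 3 probes gave 1.27, 1.58 and 2.33, each changed on its own. Both regions were well above background on all 6 arrays in the Fra-1hep channel and on 3 of 6 in the wild-type channel, so wild-type liver was near the detection limit for them. With the ratios of the authors' deposited table, which carry no offset, the same fit gave 4.07 and 4.30.

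The third was chr15:32167516-32174427_R, 6912 bp, with log2 ratios of 0.75, 0.84, 0.86, 0.67 and 0.74 in mice 1 to 5 and 0.72 on the dye-swapped array. It had the closest agreement between mice of the leading 4 (SD 0.07), with a fitted value of 0.74 (SE 0.05, adjusted p = 0.00127), and each of its 5 probes changed, by 0.60 to 0.81. The region chr9:78104935-78116974_F, a bright region with 1 probe, rose by 0.68 (SE 0.11, adjusted p = 0.0151); mouse 5 was lowest at 0.28 and mouse 2 highest at 0.91. Of the 41 risen regions, these 4 were the ones past 1.5-fold.

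The other 6 of the 10 largest rises lay between 0.45 and 0.49. In chr13:28551902-28975446_R, at 423545 bp the longest changed region, the arrays ran from 0.32 to 0.64 (fitted 0.49, SE 0.07), and with the authors' deposited ratios the value was 2.21. Close to its end, chr13:28947034-28949166_R ran from 0.39 to 0.56 (fitted 0.46, SE 0.05; 1.14 with the authors' deposited ratios). For chr17:56790296-56803875_F the range was 0.24 to 0.80 (fitted 0.47, SE 0.10, adjusted p = 0.0279; 1.29 with the authors' deposited ratios), and the call was lost without mouse 1 or mouse 4. The mice lay between 0.54 and 0.99 for chr19:5801802-5802597_R, with mouse 1 highest and the dye-swapped array at 0.25, below all mice (fitted 0.47, SE 0.09). A similar gap was seen in chr1:193875525-193978800_R, with 0.60 to 0.77 in the mice and 0.24 on the dye-swapped array (fitted 0.46, SE 0.05); of its 2 probes 1 rose by 0.88 and the other had 0.03. All 5 probes of chr9:14460976-14488051_F changed, by 0.35 to 0.55, and its arrays ran from 0.37 to 0.69 (fitted 0.45, SE 0.08). With the authors' deposited ratios the calls of chr9:78104935-78116974_F, chr17:56790296-56803875_F, chr19:5801802-5802597_R and chr1:193875525-193978800_R were lost (adjusted p = 0.0516 to 0.0825).

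The largest fall was in chr10:92547995-92556102_F, 8108 bp and 1 probe, and it was uneven between mice. Its log2 ratio was -0.65 in mouse 1, -1.74 in mouse 2, -1.76 in mouse 3, -1.69 in mouse 4, -0.59 in mouse 5 and -1.27 on the dye-swapped array. Mice 1 and 5 thus showed a smaller fall than the other 3, with 0.64 as the SD over the counted mice. The fitted value was -1.22 (SE 0.25, n = 4, 2.33-fold, adjusted p = 0.0269). Signal in the Fra-1hep channel was above background on 3 of 6 arrays, and in wild type on 6. The call was lost with the authors' deposited ratios, where the value was -2.65, and with a variance trend (adjusted p up to 0.130).

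Next came chr5:96591892-96606467_F, a bright region of 14576 bp with -0.53, -0.49, -0.50, -0.66 and -0.52 in mice 1 to 5 and -0.70 on the dye-swapped array. The mice agreed closely (SD 0.07), all 3 probes fell, with fitted values from -0.64 to -0.59, and the fitted value was -0.63 (SE 0.05, adjusted p = 0.00192). In chr14:55433382-55452757_R the mice ran from -0.57 to -0.33 and the dye-swapped array was lowest at -0.73 (fitted -0.59, SE 0.06, adjusted p = 0.00324). All arrays of chr6:122741562-122743423_R were low, from -0.95 in mice 2 and 3 to -0.43 on the dye-swapped array (fitted -0.58, SE 0.08, adjusted p = 0.0071), and its 3 probes each fell. The value of chr1:94611439-94613779_R, -0.58 (SE 0.08), is the mean of unlike probes, since 1 probe fell by 1.13 and the other had -0.02; the authors' deposited ratios gave -0.93. The next 5 falls, in chr6:35201798-35217831_F, chr6:57583950-57624216_F, chr1:175654606-175672031_R, chr1:175653557-175671940_R and chr14:62254361-62301162_R, had fitted values from -0.55 to -0.47 and single arrays from -0.69 to -0.29.

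Of the 81 changed regions, 63 were well above background on every array in both channels. For 2 no array put the wild-type signal well above background, so that only a bound holds. The first of these, chr19:61226425-61270975_F, was at least 1.28-fold higher in Fra-1hep, and chr13:28700385-28760363_R at least 1.16-fold. In these bounds the wild-type signal of each array was raised to that of its dimmest detected probe where it was lower. A limit set above that probe would give smaller bounds, so these are approximate. No changed region lacked signal in Fra-1hep on all arrays.

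Probes of the same changed region mostly had the same sign. A region is called on the mean of its probes, so the choice of changed regions favours such agreement. Among the 56 changed regions with at least 2 probes that passed the filter, all passing probes had the same sign in 55 and each changed by itself in 22; another 25 rested on 1 passing probe. In 5 changed regions no single probe changed. Conversely 125 regions held a changed probe but did not change as a mean. Over all 1441 regions with at least 2 passing probes, the median range between the probes was 0.114 on the log2 scale, 148 held a changed probe, and 50 held at least 2 that changed in the same direction and none in the other.

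A single region had probes that changed in both directions. In chr5:149751979-149808240_R, 56262 bp with 8 probes, 4 probes rose and 3 fell, and their mean stood at -0.01 (SE 0.07, adjusted p = 0.954). Of the falling probes, A_30_P01032861 had -0.96, -1.12, -0.94, -0.74 and -0.63 in mice 1 to 5 and -0.92 on the dye-swapped array (fitted -0.88, SE 0.09, adjusted p = 0.000738). The other falling probes were fitted at -0.75 and -0.66, and all 3 were above background everywhere. Of the rising probes, A_30_P01018012 had 0.72, 0.68, 0.79, 0.17 and 0.44 in the mice and 0.61 on the dye-swapped array (fitted 0.56, SE 0.11, adjusted p = 0.0134). The 4 rising probes were positive and the 3 falling ones negative on all 6 arrays, so the groups of probes did not overlap on any array. The groups were formed by calls from these same arrays, which favours such separation. The rising probes were dim in wild type, above background there on 5, 1, 1 and 0 of 6 arrays. Inside this interval and on the same strand, the separately named region chr5:149765314-149771786_R rose in every mouse, with 0.41, 0.42, 0.37, 0.42 and 0.38 and 0.45 on the dye-swapped array (fitted 0.43, SE 0.05, adjusted p = 0.00424). The nested region chr5:149775338-149781472_R had 0.15 (SE 0.05) and did not pass the test. The forward strand of the whole interval, chr5:149751979-149808240_F, had -0.01 (SE 0.05). Where the 8 probes lie within the interval is not given in the files.

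The strands of an interval were then compared. Of 1042 intervals on the array with both strands, 561 had both strands tested, 182 only the forward, 193 only the reverse and 106 neither. At 0 of 561 intervals did both strands change. At 16 only 1 strand passed the test, and at 10 more a strand changed where the other could not be tested. Since passing on only 1 strand does not show a difference, the forward minus reverse difference was tested itself, and it passed at 20 of 561 intervals (3.57%; 102 had an unadjusted p under 0.05). Of these 20, 14 had 1 changed strand, 5 times the forward and 9 times the reverse, and at 6 neither strand changed alone. The differences measured 0.22 to 0.72 on the log2 scale, and at 10 of the 20 the strands had opposite signs. At chr1:138528250-138538250 and chr9:78107225-78118850 only 1 strand changed, but the strand difference did not pass (adjusted p = 0.106 and 0.301). Over the 561 intervals the ratios of the strands correlated weakly (Pearson r 0.15, Spearman rho 0.09), a description over intervals that share arrays and overlap each other, and 297 had the same sign. Some of the 20 intervals had a strand near the detection limit, and others were bright on both strands. The background offset pulls the ratios of dim probes towards 0. The part of unequal signal in the called differences and in the correlation was not tested.

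**Figure D3:**
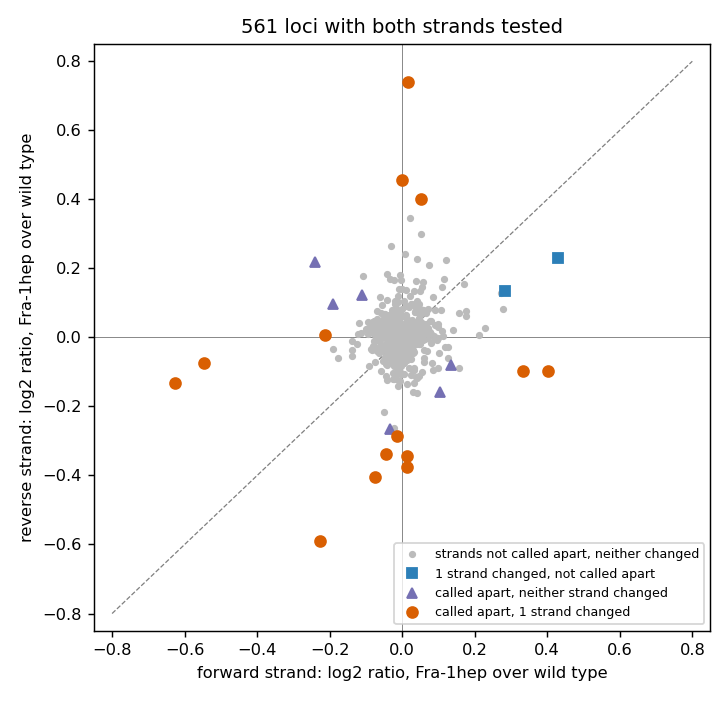
Log2 ratio of the forward strand (horizontal axis) against that of the reverse strand (vertical axis) for the 561 intervals with both strands tested; the dashed line marks equal ratios. The 14 intervals called apart with 1 changed strand (orange) lie along the axes, with the unchanged strand at most 0.23 from 0.

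The largest strand difference was at chr15:32167516-32174427, whose reverse strand has been described. The forward strand had -0.05, -0.08, -0.02, -0.01 and 0.04 in mice 1 to 5 and 0.05 on the dye-swapped array, against 0.67 to 0.86 on the reverse strand. The strands did not overlap on any array, and the difference, forward minus reverse, was -0.72 (SE 0.05, adjusted p = 0.000169). This interval was chosen for its difference on these same arrays, which favours such separation. The forward strand of this interval was above background on 4 of 6 arrays in Fra-1hep and 2 of 6 in wild type, so its ratio is less well measured. At chr19:61226425-61270975 the direction was the other way: the forward strand had 0.20 to 0.48 and the reverse strand -0.13 to -0.03 (difference 0.50, SE 0.06, adjusted p = 0.00164). Wild type was not well above background there on the forward strand on any array, so these forward ratios and the difference are not exact and its place in this order is uncertain; with the authors' deposited ratios the difference was 2.53 and the forward ratio 2.06.

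Both other leading intervals with a changed strand were bright on both strands, above background on all arrays and channels. At chr5:96591892-96606467 the forward strand fell (-0.70 to -0.49) while the reverse strand had -0.21 to -0.07, a difference of -0.49 (SE 0.04, adjusted p = 0.000248). At chr6:35201798-35217831 the forward strand fell (-0.69 to -0.41) and the reverse strand had -0.17 to -0.05, with a difference of -0.47 (SE 0.04, adjusted p = 0.000365). With the authors' deposited ratios these 2 differences did not pass (adjusted p = 0.437 and 0.571). The fifth, chr4:131905739-131910814, had no changed strand: the forward strand had -0.38 to 0.03 and the reverse strand 0.03 to 0.54, so that every array had the reverse strand above the forward one (difference -0.46, SE 0.10, adjusted p = 0.0409). Its choice for the called difference favours the same order on every array. The call of this interval was lost under 5 alternatives (adjusted p up to 0.0828). With those deposited ratios only 2 strand differences passed of 554, without mouse 1 there were 13, and with the filter requiring all 6 arrays in a channel 8 of 382.

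Some changed regions lay next to each other. Tested regions were joined into neighbourhoods wherever the gap was at most 100 kb, which gave 1230, of which 739 held at least 2 regions and 68 a changed one. In 9 neighbourhoods at least 2 regions changed, 22 regions in all, and 0 neighbourhoods held regions changed in both directions. Regions in a neighbourhood often overlap, so these are not independent measurements.

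**Figure D4:**
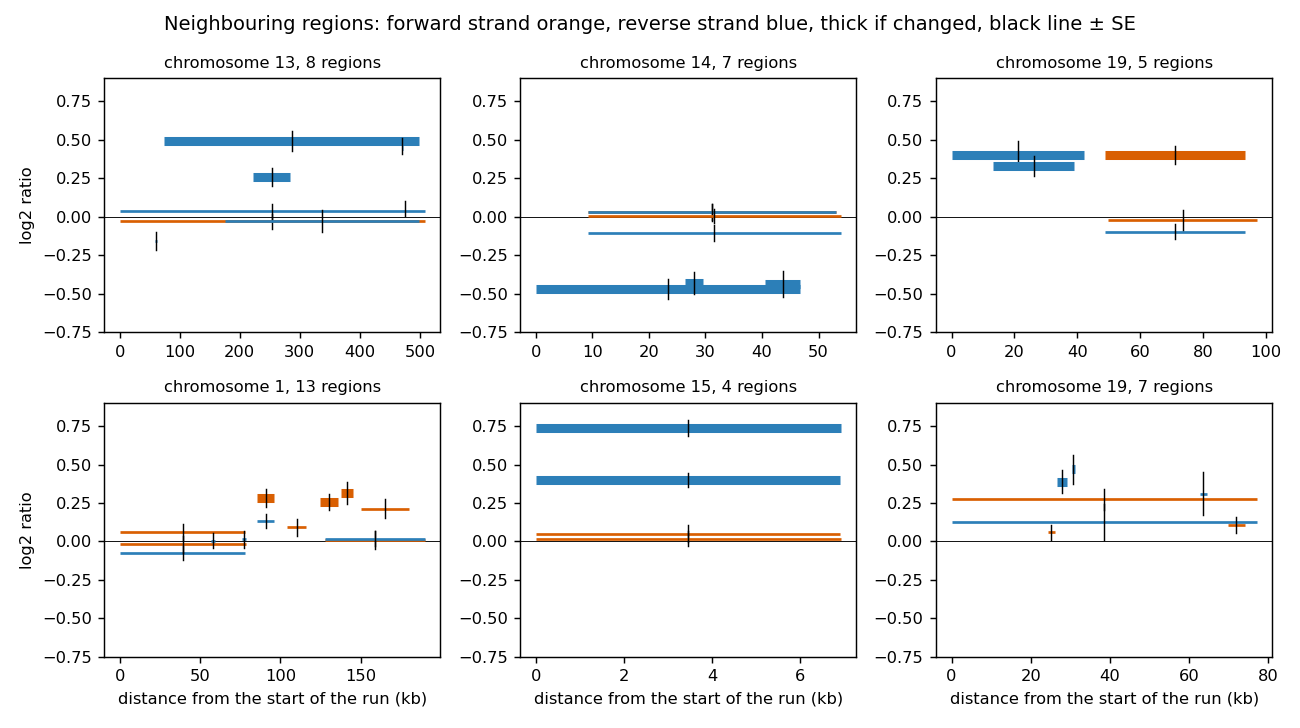
Log2 ratio (vertical axes) of each tested region against its distance in kb from the start of the neighbourhood (horizontal axes) in 6 neighbourhoods; a horizontal bar spans the region, orange for forward and blue for reverse, thick if it changed, and the black line is ± SE. In each panel the changed regions lie on the same side of 0. On chromosomes 13 and 14 several regions that overlap them lie near 0, and in the last panel all 7 regions lie above it.

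On chromosome 13, between 28477490 and 28985604, 3 of 8 tested regions rose, all on the reverse strand: chr13:28551902-28975446_R (0.49), chr13:28947034-28949166_R (0.46) and chr13:28700385-28760363_R (0.26, SE 0.06, adjusted p = 0.0368). The overlapping reverse regions chr13:28653375-28975325_R (-0.03, SE 0.07) and chr13:28477490-28985604_R (0.04, SE 0.05) did not pass, so probes named for almost the same stretch gave unlike values. The call of chr13:28700385-28760363_R, a bound as given above, was lost under 7 alternatives, among them without mouse 1, without mouse 4 and with the authors' deposited ratios (1.21).

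On chromosome 14, between 62254361 and 62308286, 3 of 7 fell, again all on the reverse strand: chr14:62254361-62301162_R (-0.47, SE 0.07), chr14:62280837-62283960_R (-0.43, SE 0.07) and chr14:62294849-62301165_R (-0.44, SE 0.09, lost without mouse 4 and with median centring). With the authors' deposited ratios the first had -0.79. The other 2 lie wholly or almost wholly inside the first. The overlapping chr14:62263564-62307496_R had 0.03 (SE 0.05), and both forward regions had 0.00 and 0.03.

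Chromosome 19 held 2 of the neighbourhoods. Between 61177675 and 61274669, 3 of 5 regions rose: chr19:61177675-61219875_R (0.40, SE 0.09), chr19:61190886-61216704_R (0.33, SE 0.06; 0.71 with the authors' deposited ratios) and, on the other strand, chr19:61226425-61270975_F (0.40, SE 0.06, a bound as given above). The call of the first was lost without mouse 1 or mouse 4 and with the authors' deposited ratios, and that of the second when only the slide with both dye orientations was used. Between 5771425 and 5848475 all 7 tested regions had a positive ratio, from 0.06 to 0.47 with a median of 0.27, and 2 passed, chr19:5801802-5802597_R (0.47) and chr19:5798135-5800557_R (0.39, SE 0.07, adjusted p = 0.0216). With the authors' deposited ratios neither passed (adjusted p = 0.0745 and 0.0632). All 10 probes of chr19:5771425-5848475_F, which spans this whole stretch, passed the filter, and its 0.27 (SE 0.07) narrowly missed the threshold (adjusted p = 0.0537).

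Along chromosome 1, between 138442536 and 138632310, 3 of 13 regions rose, all forward: chr1:138579972-138587381_F (0.32, SE 0.07, lost without mouse 4), chr1:138528250-138538250_F (0.28, SE 0.06, lost without mouse 1 or mouse 4) and chr1:138567345-138578139_F (0.26, SE 0.05). With the authors' deposited ratios their values were 1.42 (adjusted p = 0.0554), 0.72 and 0.79, and on the slide with both dye orientations the latter 2 did not pass (adjusted p = 0.0519 and 0.0751). Of the 10 probes of chr1:138528250-138538250_F, 8 passed the filter, against 2 of the 10 on its reverse strand. The neighbourhood on chromosome 15 is a pair of intervals with the same start and ends 10 bases apart, at 32174417 and 32174427. Both reverse regions rose, by 0.40 (SE 0.05; 0.76 with the authors' deposited ratios) in chr15:32167516-32174417_R and 0.74 in chr15:32167516-32174427_R, and both forward regions had 0.05 and 0.02. The remaining 3 neighbourhoods had 2 changed regions each. Between 85300475 and 85337483 on chromosome 1, 2 of 4 fell. Between 175653557 and 175717250 on the same chromosome, 2 of 5 fell, and another reverse region within their span, chr1:175660642-175671878_R, had -0.10 (SE 0.05). Between 78104935 and 78118850 on chromosome 9, 2 of 3 rose, chr9:78104935-78116974_F and, on the other strand, chr9:78107225-78118850_R (0.23, SE 0.05, adjusted p = 0.0383).

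The mice themselves differed most in 3 regions. In chr5:14943275-14944205_F the log2 ratio was 0.78, 0.75, 0.43 and 0.22 in mice 1 to 4, 1.86 in mouse 5 and 0.78 on the dye-swapped array. All were positive, but the SD over counted mice was 0.71, and the fitted 0.82 (SE 0.27) did not pass (adjusted p = 0.111); without mouse 5 it was 0.66 and passed (adjusted p = 0.0266). In chr16:23992037-24001037_F, with 7 probes, mouse 4 stood alone at 1.09 while the other mice had -0.25 to -0.06 (fitted 0.17, SE 0.24, adjusted p = 0.709; 0.02 without mouse 4). The remaining one was chr10:92547995-92556102_F, described among the falls. The median SD between mice over all tested regions was 0.064, beside 0.119 for the other features. These are unlike measures, since a region is a mean of its probes, a gene is 1 probe, and most regions are dim. In the brightest of the 4 bins of signal the medians were 0.103 for regions and 0.111 for other features. In the dimmest bin they were 0.057 and 0.114.

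For comparison, long noncoding RNA genes known by name were taken from a fixed list of 65, of which 31 are on the array and 26 were tested. Of these 5 rose, 0 fell and 21 did not pass, 19.2% beside 15.2% of all tested genes with a symbol, and the median log2 ratio was 0.09. Whether any region described above belongs to a gene of this list was not checked, so regions and named genes may share transcripts. The imprinted Meg3, a maternally expressed RNA, had 1.92, 0.51, 0.69, 0.51 and 1.58 in mice 1 to 5 and 1.23 on the dye-swapped array. Mice 1 and 5 were well above the rest (fitted 1.19, SE 0.27, adjusted p = 0.0383), and the call was lost without mouse 5, with the authors' deposited ratios and with a variance trend (adjusted p = 0.0696, 0.0713 and 0.092). Mirg, a microRNA host transcript from the same imprinted domain, was more even, with 0.56 to 1.02 in the mice and a fitted 0.76 (SE 0.09, adjusted p = 0.00464); with the authors' deposited ratios it was 2.21. Neat1, the RNA scaffold of nuclear paraspeckles, rose by 0.47 (SE 0.05, adjusted p = 0.00476), with all arrays between 0.28 and 0.55. Pvt1, a neighbour of Myc, rose by 0.45 (SE 0.07, adjusted p = 0.0128) by its brightest probe, with 0.21 to 0.54 in the mice. The other of its 2 passing probes had 0.23 and did not change. Dleu2, the host of miR-15a and miR-16-1, rose by 0.27 (SE 0.06, adjusted p = 0.0303). That call was lost without mouse 1 or mouse 5, with the authors' deposited ratios and on the slide with both dye orientations (adjusted p up to 0.103). Malat1, a nuclear speckle RNA, had 1.02 in mouse 4 and -0.10 to 0.02 in the others (fitted 0.18, SE 0.21, adjusted p = 0.641), and the imprinted H19 had 0.07 (SE 0.06).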

How the data were processed

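The authors extracted images with Agilent Feature Extraction (10.7.3.1 per the file headers, 10.7 in the submitters' processing notes). Their deposited scanner files hold, per the file headers, median spot and background intensity per channel without normalization, a log10 ratio of processed signals, and 0 or 1 marks for outlier, saturated and above-background spots. The authors' deposited table holds log2 ratios, all in the direction Fra-1hep over wild type. Set against the scanner ratios, the median difference was 3.66e-07 to 4.35e-07 and r was 0.968 to 0.999, so that most probes match and some do not; column medians were -0.18 to 0.06.

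Signals were background-corrected (normexp, offset 50) and loess-normalised within arrays using R 4.3.3, limma (version 3.58.1) and data.table (version 1.17.8); control and outlier spots (190 to 301 per array) had weight 0. Other features were genes by their brightest probe, named through the GRCm38.p6 RefSeq list. A feature had to be well above background with Fra-1hep RNA on 3 or more of 5 mouse arrays, or with wild-type RNA on 3 or more of 6 arrays (any probe of a region). limma (lmFit, eBayes) fitted genotype and a dye constant over all features, 2-sided, with Benjamini-Hochberg adjustment over 22886 features, 3 residual and 3.53 prior degrees of freedom; strand differences were fitted alike over intervals with both strands tested. Scripts were tested on simulated data. The number of arrays limits precision.

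Named in the text are the 10 largest rises and falls among changed regions with 1 direction on all 6 arrays, the 5 largest strand differences, the 3 regions most variable between mice, up to 6 neighbourhoods with at least 2 changed intervals (ties broken by name), and listed noncoding RNAs that changed; anything else named was chosen after its values were seen. Members and lists were chosen with earlier results of these data known. The series text speaks of 6 single mice, the sample labels of 5 plus 1 array of pools with dyes exchanged, which was taken as right. The labels do not say how many mice the Fra-1hep pool held. Alternatives covered normalization, filter, dye term, variance model, the value of a region, slide and single mice. No sequences are shown: the files hold none for these probes, and no genome of build mm9 was used here.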

Additional observations from a re-analysis of the deposited data

Results flagged for a closer look

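Of 38 named regions and genes, 3 had a counted mouse far from the other 3 of n = 4 by a Dixon test at the 95% level. Chance gives about 1 in 20 such cases among independent items not chosen for their spread, and some of these items overlap. The ranges given for the other mice hold with mice 2 and 3 averaged. In chr16:23992037-24001037_F mouse 4 had a log2 ratio of 1.09, against -0.25 to -0.07 in the others. This region was among the 3 named as most variable between mice, which favours such a flag. In chr19:5798135-5800557_R mouse 1 had 0.57, against 0.26 to 0.29, while mice 2 and 3 singly had 0.33 and 0.19. In chr19:61190886-61216704_R mouse 4 had 0.055, against 0.26 to 0.30, while mice 2 and 3 singly had 0.18 and 0.41.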

How the results depend on the processing

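The alternatives changed counts more than directions: across 43 named results, 0 reversed under any alternative and 42 of their recomputed calls were lost. Against 81 changed regions, 217 passed with the mouse arrays alone and no dye term, 153 with no dye term and the dye-swapped array counted as a sample, 157 with a region's brightest probe, and 123 with only the probes passing the filter, an alternative added after seeing the data. Leaving out 1 mouse gave 45 (mouse 4) to 76. In turn 38 regions changed in the main test and in every such fit, and 25 under all alternatives but the one restricted to a single slide. The authors' deposited ratios gave 71, of which 43 were among the 81, and median centring 72, of which 56 were; 5 mouse arrays as separate samples gave 107, and so did these with slide as a random block. For strand differences, 20 became 110 and 49 without the dye term (mouse arrays alone, and with the dye-swapped array), 41 with the brightest probe, 43 with the passing probes, 8 with the stricter filter and 2 with the deposited ratios; leaving out 1 mouse gave 13 (mouse 1) to 20. The 5 named noncoding RNAs became 3 with the deposited ratios and 8 with mouse arrays alone, and 3 (mouse 5) to 5 on leaving out a mouse. The detected share became 16.2% (Fra-1hep) and 12.6% (wild type) with all probes required, and 87.8 and 85.6% with the mark for positive and significant signal. Each cause was not tested, apart from the probes or samples an alternative leaves out. Many ratios rest on dim signal, since 1956 of 2855 regions lie in the dimmest of 4 bins of it. No paired analysis was possible because every mouse met the same wild-type pool and only 1 dye-swapped array exists.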

Other observations

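On the X chromosome 178 regions have names of the same form, and 1 of 99 tested changed (higher). A further 3 position-named features carry no strand and were not described.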
